A study of Homo sapiens with 36 samples.

Results

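Here 2 breast lines labelled with knockdown of the same targets were compared: MDA-MB-231 cells and transformed MCF-10A ER-Src cells, each after siRNA against YAP (YAPi) or against TAZ (TAZi). The members were chosen by their labels, as the MDA-MB-231 YAPi and TAZi libraries of the first MDA-MB-231 series of the study and the ER-Src YAPi_TAM and TAZi_TAM libraries, 2 of each, which gives 8 of the 36 RNA-seq libraries. The study asks how YAP and TAZ, together with AP-1 proteins and STAT3, regulate genes during breast cellular transformation. MCF-10A is an immortalized, non-tumorigenic breast epithelial line. ER-Src is a derivative that carries v-Src fused to a part of the estrogen receptor that binds its ligand. All ER-Src groups share this transgene, and the 4 libraries used here came from cells treated with tamoxifen (TAM), which activates the fusion. The labels give 0.4 to 1 µM tamoxifen together with 2 to 4 µM AZD0530, a Src family kinase inhibitor. The methods give 2 lengths of treatment after transfection, and which of them the RNA-seq cells had is not given in the sources used here. MDA-MB-231, a triple-negative breast cancer line, lacks this transgene. Its labels repeat the ER-Src treatment text, while the methods describe tamoxifen for ER-Src cells alone. ER-Src cells were kept in DMEM/F12 with charcoal-stripped serum, EGF, hydrocortisone, cholera toxin and insulin, and MDA-MB-231 cells in DMEM with serum. The line, the transgene, the medium and the series named in the sample titles therefore cannot be told apart in any difference given below. The titles do not name sequencing runs. Tamoxifen given with AZD0530 is a further difference. For this combination, not for tamoxifen alone, the vehicle (ETH) libraries of ER-Src with siRNA against the same targets give a reference, used below. Each line is 1 line, and nothing in the labels says that the 2 libraries of a group came from separate cultures, so the p-values measure the spread between these libraries, which may be technical.

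YAP and TAZ are transcriptional co-activators that do not bind DNA themselves and reach it through TEAD proteins and other factors. In the Hippo pathway, with NF2 (merlin) upstream, MST kinases activate LATS kinases, which phosphorylate YAP and TAZ and keep them out of the nucleus. In breast cells they are known for driving genes of adhesion, matrix and growth such as CCN1, CCN2, ANKRD1 and AXL. AP-1 is a dimer of JUN and FOS family proteins, and STAT3 is activated by cytokines of the IL-6 family through the receptor subunit gp130.

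The siRNA sequences listed for the study are shown first, since their targets define the groups. The methods name commercial oligo pools and describe their transfection into ER-Src cells. The supplementary material lists 1 sequence of 19 bases for each target beside the pool, so the other oligos of a pool are not shown here. Which of these reagents the RNA-seq cells received, and whether MDA-MB-231 and ER-Src cells received the same, is not given in the sources used here. Both sequences were matched to GENCODE version 44 transcripts (hg38) over their whole length, and the capitals mark the matched bases.
YAP1 siRNA: GACAUCUUCUGGUCAGAGA
TAZ siRNA: ACGUUGACUUAGGAACUUU
The YAP1 sequence lies at chr11:102114365-102114383 on the plus strand, in coding sequence of 8 YAP1 transcripts, and also matches a transcript of the pseudogene YAP1P1. The TAZ sequence lies at chr3:149520887-149520905 on the minus strand, in 6 transcripts of WWTR1, the gene of TAZ, of which 4 hold it as coding sequence. Levels below are normalized counts per kilobase, which is the DESeq2 normalized count divided by the effective gene length in kilobases. YAP1 (chr11:102110447-102233424, plus strand) stood at 81.7 and 67.6 in ER-Src YAPi_TAM, 399.6 and 335 in ER-Src TAZi_TAM, 49.3 and 48.7 in MDA-MB-231 YAPi and 330.1 and 360.3 in MDA-MB-231 TAZi, so it was lower in each YAPi library than in any TAZi library of the same line. WWTR1 (chr3:149517235-149736714, minus strand) stood at 71.9 and 79.99 in ER-Src YAPi_TAM, 18.2 and 18.8 in ER-Src TAZi_TAM, 55.3 and 106 in MDA-MB-231 YAPi and 24.0 and 3.62 in MDA-MB-231 TAZi. It was lower in each TAZi library than in any YAPi library of the same line, and the MDA-MB-231 TAZi libraries lay far apart, replicate 1 at 24.0 and replicate 2 at 3.62. With the siRNA as covariate, neither gene was called different between the lines, with a log2 fold change of -0.03 (SE 0.17, adjusted p 0.913) for YAP1 and of -0.17 (SE 0.35, adjusted p 0.726) for WWTR1.

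The MDA-MB-231 libraries were shallower. They held 1724453 to 2784605 expected counts and the ER-Src libraries 11428402 to 17468587, a ratio of 6.36 between the means. Genes with at least 10 counts numbered 10970 to 11863 in MDA-MB-231 and 14526 to 15665 in ER-Src. RNAs without a poly(A) tail took 12.1% to 14.1% of counts in MDA-MB-231 and 12.02% to 12.6% in ER-Src, which is why these groups rather than the control libraries were compared. Within MDA-MB-231 the replicates differed in a further way, since the gap between gene length and effective length was 48.0 bases in both replicate 1 libraries, 74.6 bases in both replicate 2 libraries and 49.5 bases in ER-Src. Both MDA-MB-231 replicate 1 libraries also held traces of the RNAs that are most abundant in ER-Src. Over 17 genes whose normalized count averaged 2000 or more in ER-Src and a log2 fold change of -8 or below, the replicate 1 libraries held a median of 0.14% (YAPi) and 0.158% (TAZi) of the ER-Src mean, and both replicate 2 libraries a median of 0%. The source of these traces was not tested. The fitted fold changes of these genes rest on such counts, and for the genes named among them the MDA-MB-231 libraries are given singly below.

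The 3 marker genes separated the lines. VIM, the mesenchymal intermediate filament vimentin (chr10:17228241-17237593, plus strand), stood at 2874 and 2917 in ER-Src YAPi_TAM, 2611 and 2506 in ER-Src TAZi_TAM, 5447 and 5204 in MDA-MB-231 YAPi and 4428 and 4174 in MDA-MB-231 TAZi. All MDA-MB-231 libraries were above all ER-Src libraries, with a difference of 1.74-fold (log2 fold change 0.80, SE 0.059, adjusted p 1.9e-40), and vimentin was thus abundant in both lines. CDH1, the epithelial adhesion protein E-cadherin (chr16:68737292-68835537, plus strand), stood at 254 and 270.4 in ER-Src YAPi_TAM, 144 and 125 in ER-Src TAZi_TAM, 0.587 and 0 in MDA-MB-231 YAPi and 0 and 0 in MDA-MB-231 TAZi. In MDA-MB-231 this rested on 1 count over the 4 libraries, and the ratio of ER-Src to MDA-MB-231 was 1132 with a 95% counting interval of 203 to 44737 (log2 fold change -9.71, SE 1.03, adjusted p 4.8e-20). KRT5, a keratin of basal epithelium (chr12:52514575-52520530, minus strand), stood at 14420 and 16476 in ER-Src YAPi_TAM, 20379 and 19205 in ER-Src TAZi_TAM, 69.5 and 0 in MDA-MB-231 YAPi and 76.4 and 0 in MDA-MB-231 TAZi. It was at 0 in both MDA-MB-231 replicate 2 libraries and at a trace in both replicate 1 libraries (log2 fold change -9.28, SE 1.71, adjusted p 3.1e-07). CDH1 and KRT5 were thus at or near 0 in MDA-MB-231, while VIM differed by a small margin, and the wider mesenchymal list is given below. Of the blood and endothelial markers, PTPRC, CD3E, ITGAM, HBB, VWF and CDH5 had too few counts for an adjusted p in either line, while HBA1 stood at 0 to 47.7 in ER-Src with no count in MDA-MB-231, CD14 at 97.7 to 137 in ER-Src and 1.78 to 8.19 in MDA-MB-231 and PECAM1 at 3.49 to 9.59 in ER-Src and 0 to 0.511 in MDA-MB-231.

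**Figure D1:**
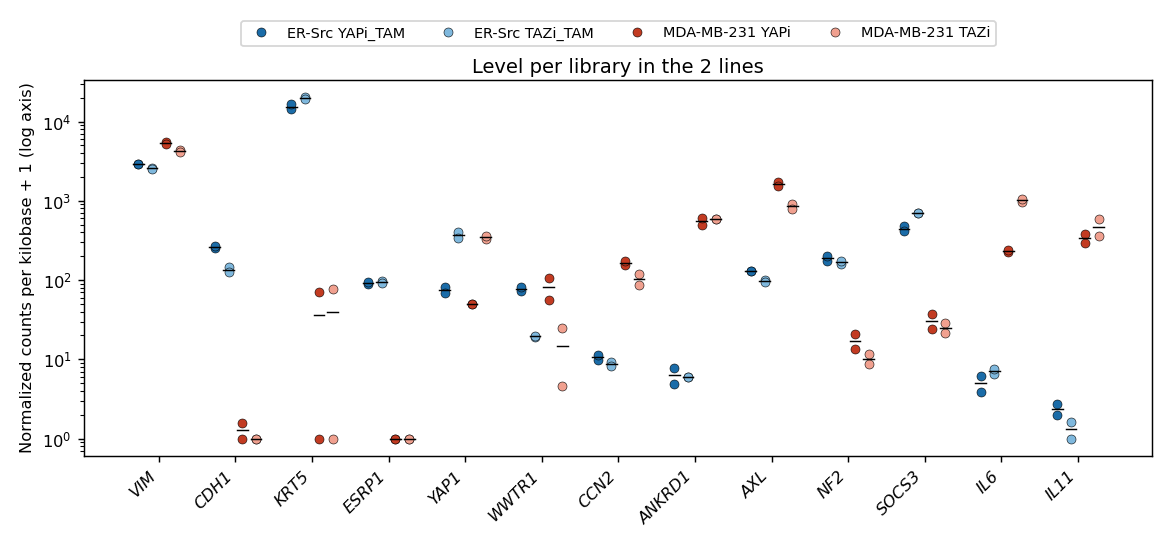
Level per library (normalized counts per kilobase plus 1, log axis) of 13 genes in the 4 groups, with 1 point per library and a black bar at the mean of the 2 libraries of a group. CDH1, KRT5 and ESRP1 sit at or near 0 in the MDA-MB-231 libraries except for a KRT5 trace in replicate 1, YAP1 and WWTR1 follow the siRNA in both lines, and ANKRD1, IL6 and IL11 are high in MDA-MB-231 alone among these 8 libraries.

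Across the genome, the lines differed at 8156 of 20312 genes with an adjusted p (DESeq2, Benjamini-Hochberg adjusted p under 0.01), which is 40.2%. Of these, 3875 (19.1%) were higher and 4281 (21.1%) lower in MDA-MB-231. At least 4-fold differences were called at 1277 higher (6.29%) and 1529 lower genes (7.53%). Among protein-coding genes 50.5% were called, 24.1% higher and 26.4% lower, and the counts of the gene lists below are to be read against these shares. The median log2 fold change over all genes tested was -0.07. It moved to -0.18 with TMM size factors and to 0.20 when libraries were scaled to equal protein-coding totals. With the second of these scalings 5325 genes were higher and 3088 lower, so the split of small differences depends on the scaling. Of the called genes named below none changed sign under either scaling, EPCAM, SNAI1, ASAP1, CXCL8, SRC, LDHA and RN7SL2 lost their call with protein-coding totals, and HMOX1 and RN7SK lost it with TMM. With the effective gene length of each library as an offset, which follows the isoforms used, the log2 fold change of KRT19 came to 5.52, of LAMA3 to -4.59, of IL11 to 8.86, of IFI44L to -6.55 and of CDH2 to -4.12, each more than 1.5 times in fold from the value given below. The same held for genes with few or no counts in 1 line, whose log2 fold changes came to 12.12 for BCAT1, 11.46 for ARMCX2, 11.09 for EPDR1, 11.19 for EDIL3, 9.75 for COL5A1, -10.89 for KRT16, -10.81 for MME, -9.13 for CDH3, -7.94 for ITGB6 and -11.18 for SNORD3B-1, and for SRC, as given below. In a principal component analysis of the genes with 100 or more normalized counts on average, the first component separated the lines and held 88.6% of the variance, the second held 4.43% and separated the MDA-MB-231 replicates 1 and 2, and the third held 3.44% and separated YAPi from TAZi.

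**Figure D2:**
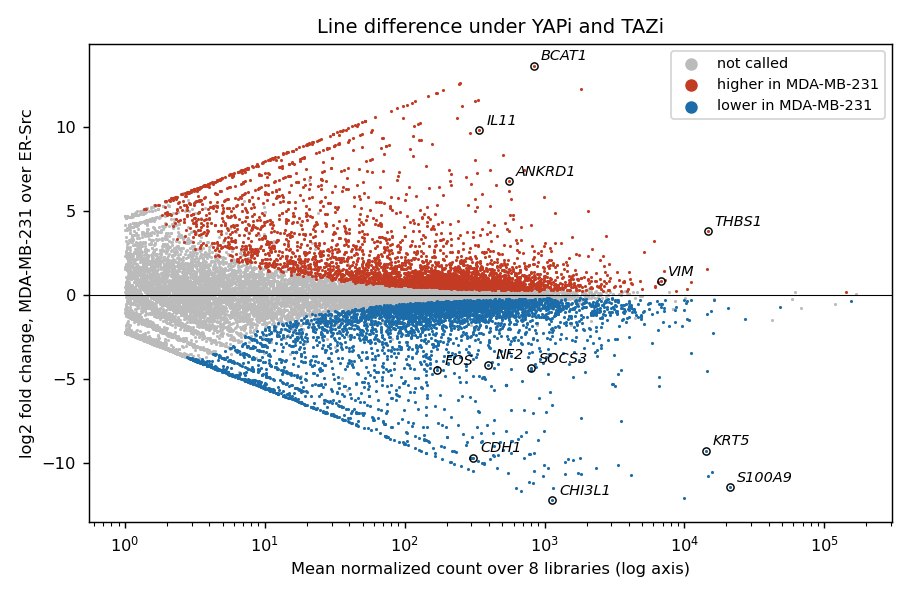
Log2 fold change of MDA-MB-231 over ER-Src against the mean normalized count over the 8 libraries (log axis), 1 point per gene with an adjusted p, red for genes called higher and blue for genes called lower in MDA-MB-231 (adjusted p under 0.01). The 3875 red and 4281 blue genes reach log2 fold changes of 13.63 (BCAT1) and -12.24 (CHI3L1), and the straight lower and upper edges are genes with few or no counts in 1 line.

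Among called protein-coding genes that averaged 100 or more normalized counts and did not overlap between the lines, the 12 with the largest fold change toward MDA-MB-231 were BCAT1, ARMCX1, ARMCX2, ADGRF5, EPDR1, CALB2, EDIL3, G0S2, SLC17A9, XAGE1B, ZSCAN18 and LAYN. They were at or near 0 in ER-Src. BCAT1, which transfers the amino group of branched-chain amino acids, stood at 401 and 362 under YAPi and 342 and 247 under TAZi in MDA-MB-231 and had 1 count over the 4 ER-Src libraries, a ratio of 15732 with a 95% counting interval of 2822 to 621600 (log2 fold change 13.63, SE 1.03, adjusted p 1.7e-38). ADGRF5, an adhesion G protein-coupled receptor, stood at 662 and 702 under YAPi and 668 and 701 under TAZi in MDA-MB-231 and at 0 to 0.307 in ER-Src (log2 fold change 12.25, SE 0.56, adjusted p 1.8e-104). ARMCX1 and ARMCX2, neighbouring X-linked genes of armadillo-repeat proteins at mitochondria, had no count in ER-Src. Against a floor of 3 counts over the 4 ER-Src libraries they were at least 1573-fold and at least 1564-fold higher, with levels of 208 to 276 and 167 to 284 in MDA-MB-231. The calcium-binding protein gene CALB2 (at least 1036-fold), the matrix gene EDIL3 (at least 929-fold), EPDR1 (at least 1054-fold), the vesicular nucleotide transporter SLC17A9 (at least 721-fold), the zinc finger gene ZSCAN18 (at least 682-fold) and the hyaluronan receptor LAYN (at least 644-fold) had no count in ER-Src either. G0S2, an inhibitor of the triglyceride lipase ATGL, stood at 1057 and 771 under YAPi and 851 and 657 under TAZi in MDA-MB-231, a ratio to ER-Src of 3070.2 on 2 counts in the lower line (95% counting interval 848 to 25381). XAGE1B, a cancer-testis antigen, stood at 1544 and 1399 under YAPi and 1432 and 1311 under TAZi in MDA-MB-231, a ratio of 2938 on 2 counts in the lower line (95% counting interval 811 to 24288), and near-identical copies of this gene may share its reads.

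The 12 genes with the largest fold change toward ER-Src were CHI3L1, S100A8, CADM3, KRT16, MME, S100A9, ROS1, KRT6A, IL1RL1, SERPINB3, DSG3 and CDH3. CHI3L1, a secreted chitinase-like protein of inflamed tissue, stood at 1343 and 520.1 under YAPi and 2528 and 2232 under TAZi in ER-Src and had no count in MDA-MB-231, which is at least 1279.8-fold. In the vehicle (ETH) libraries of ER-Src CHI3L1 was far lower, at 13.7 and 16.1 under YAPi and 6.21 and 14.7 under TAZi. The adhesion gene CADM3 and MME, the surface peptidase CD10, also had no count in MDA-MB-231 (at least 790.5-fold and at least 722-fold). S100A9, one chain of the calprotectin pair of neutrophils and inflamed epithelia, stood at 98925 and 71804 under YAPi and 73596 and 76876 under TAZi in ER-Src and at 86.3 and 0 under YAPi and 37.8 and 0 under TAZi in MDA-MB-231. Its partner S100A8 stood at 54579 and 41049 under YAPi and 40157 and 40034 under TAZi in ER-Src and at 21.5 and 0 under YAPi and 24.5 and 0 under TAZi in MDA-MB-231. For both the MDA-MB-231 counts were all in replicate 1, and the replicate 2 libraries had none. Over all 8 libraries S100A9 had a log2 fold change -11.47, SE 1.15, adjusted p 2.4e-22, and S100A8 a log2 fold change -12.10, SE 0.53, adjusted p 9.9e-115. ROS1, a receptor tyrosine kinase, stood at 288 and 219 under YAPi and 257 and 230.3 under TAZi in ER-Src, a ratio to MDA-MB-231 of 2757 on 1 count in the lower line (95% counting interval 495 to 108901). IL1RL1, the receptor of IL-33, stood at 1092 and 519.7 under YAPi and 806 and 559 under TAZi in ER-Src, a ratio of 1683 on 2 counts in the lower line (95% counting interval 466 to 13896). The serpin SERPINB3, which shares sequence with SERPINB4, stood at 4408 and 2676 under YAPi and 6923 and 7213 under TAZi in ER-Src and at 4.36 and 0 under YAPi and 9.10 and 0 under TAZi in MDA-MB-231, again in replicate 1 only. CDH3, P-cadherin, stood at 1886 and 1407 under YAPi and 1428 and 1421 under TAZi in ER-Src and 5.01 and 0 under YAPi and 11.7 and 3.54 under TAZi in MDA-MB-231 (log2 fold change -10.68, SE 0.73, adjusted p 5.4e-47).

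Epithelial identity genes were almost all lower in MDA-MB-231: 19 of 20 genes had an adjusted p, 1 was higher and 17 were lower in MDA-MB-231, and the median log2 fold change was -4.91 (-4.51 with genes at 0 in 1 line set to their floor). Beside CDH1 these were above all ESRP1, which splices epithelial isoforms, and CD24, a surface sialoglycoprotein. ESRP1 stood at 88.0 and 93.3 under YAPi and 96.1 and 90.9 under TAZi in ER-Src and had no count in MDA-MB-231 (at least 159-fold). CD24 was itself uneven in ER-Src, at 1581 and 1415 under YAPi and 128 and 173 under TAZi, and stood at 0 to 3.93 in MDA-MB-231 (log2 fold change -8.17, SE 1.08, adjusted p 3e-13). Exceptions included EHF, an ETS factor of epithelia, which was higher in MDA-MB-231 at 42.0 to 106 in ER-Src and 176 to 276 in MDA-MB-231 (log2 fold change 1.80, adjusted p 4.5e-20), and GRHL2, which had no adjusted p. EPCAM was lower by a small margin, with levels that touched (82.1 to 132 in ER-Src and 37.2 to 82.3 in MDA-MB-231, log2 fold change -0.98, adjusted p 0.00073).

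The junctions differed in the same direction. Among desmosome genes, 10 of 10 genes had an adjusted p, 0 were higher and 9 were lower in MDA-MB-231, and the median log2 fold change was -3.08. DSG3 and DSC3, the cadherins of stratified epithelium, were both abundant in ER-Src. DSG3 stood there at 625 and 665 under YAPi and 368 and 401 under TAZi and in MDA-MB-231, in replicate 1 only, at 0.439 and 0 under YAPi and 1.04 and 0 under TAZi, a ratio of 1722 on 3 counts in the lower line (95% counting interval 589 to 8349). DSC3 stood there at 75.1 and 93.9 under YAPi and 145 and 156 under TAZi and had no count in MDA-MB-231 (at least 337-fold). PERP, a desmosome protein, stood at 575 to 1481 in ER-Src and 72.4 to 105 in MDA-MB-231 (log2 fold change -3.44, SE 0.17, adjusted p 6e-87) and JUP, plakoglobin, at 199 to 402 in ER-Src and 25.0 to 42.5 in MDA-MB-231 (log2 fold change -3.35, SE 0.22, adjusted p 5.2e-51). Among tight junction genes, 12 of 12 genes had an adjusted p, 1 was higher and 9 were lower in MDA-MB-231, and the median log2 fold change was -1.22. CLDN7 stood at 292 to 592 in ER-Src and 36.5 to 58.3 in MDA-MB-231 (log2 fold change -3.50, SE 0.28, adjusted p 2.7e-35), and the scaffold TJP1 differed by 1.63-fold (log2 fold change -0.70, adjusted p 1.6e-09). CLDN4 was the one gene called higher (log2 fold change 3.34, adjusted p 0.00237), a call lost with edgeR (adjusted p 0.0116) and in libraries thinned to equal depth (DESeq2 adjusted p 0.0109), and is described with the siRNA below. Among genes of hemidesmosomes and laminin-332, which anchor basal cells to the basement membrane, 9 of 9 genes had an adjusted p, 2 were higher and 5 were lower in MDA-MB-231, and the median log2 fold change was -1.06. COL17A1 stood at 848 to 1389 in ER-Src and 31.6 to 44.96 in MDA-MB-231 (log2 fold change -4.61, SE 0.17, adjusted p 2.5e-160) and ITGB4 at 321 to 621 in ER-Src and 49.7 to 112 in MDA-MB-231 (log2 fold change -2.57, SE 0.14, adjusted p 1.1e-77). The laminin chain LAMA3 was lower too (log2 fold change -3.84, adjusted p 3.2e-48), while the integrin chain ITGA6, which also pairs with ITGB1, was higher (log2 fold change 0.84, adjusted p 1.3e-11).

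Basal genes were lower without exception: 13 of 13 genes had an adjusted p, 0 were higher and 13 were lower in MDA-MB-231, and the median log2 fold change was -9.13 (-8.70 with genes at 0 in 1 line set to their floor). KRT17 stood at 21098 and 27066 under YAPi and 20849 and 21679 under TAZi in ER-Src and at 53.5 and 0 under YAPi and 37.7 and 0 under TAZi in MDA-MB-231 (log2 fold change -10.56, SE 1.51, adjusted p 2.1e-11). KRT6A stood at 14757 and 17762 under YAPi and 11204 and 11025 under TAZi in ER-Src and at 31.6 and 0 under YAPi and 16.4 and 0 under TAZi in MDA-MB-231, and KRT14 at 977 and 1304 under YAPi and 4042 and 3409 under TAZi in ER-Src and at 5.95 and 0 under YAPi and 3.77 and 0 under TAZi in MDA-MB-231. For these keratins the MDA-MB-231 counts came from the replicate 1 libraries, as for KRT5. KRT16 stood at 2114 and 2310.0 under YAPi and 811 and 835 under TAZi in ER-Src and at 0 and 0 under YAPi and 0 and 2.07 under TAZi in MDA-MB-231, a ratio of 4275 on 1 count in the lower line (95% counting interval 767 to 168850). The keratins KRT6A, KRT6B and KRT6C, and KRT14, KRT16 and KRT17, are near-identical over long stretches, so reads may be shared among them in the estimated counts. TP63, the master factor of basal epithelium, stood at 37.5 to 59.5 in ER-Src and 0 to 1.504 in MDA-MB-231 (log2 fold change -5.81, SE 0.80, adjusted p 3.2e-12).

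Genes of squamous differentiation and antimicrobial defence were lower where they were called: 16 of 17 genes had an adjusted p, 0 were higher and 10 were lower in MDA-MB-231, and the median log2 fold change was -4.79 (-4.64 with genes at 0 in 1 line set to their floor). With edgeR 5 were called lower. Beside S100A8 and S100A9, S100A7 (psoriasin) stood at 6859 and 2293 under YAPi and 118 and 139 under TAZi in ER-Src and had no count in MDA-MB-231 (at least 526-fold). The elastase inhibitor PI3 stood at 3786 and 2036 under YAPi and 318 and 413 under TAZi in ER-Src, a ratio of 767 on 2 counts in the lower line (95% counting interval 212 to 6333). Both were several times higher in the ER-Src YAPi than in the TAZi libraries. Luminal and simple-epithelial genes moved both ways: 12 of 14 genes had an adjusted p, 4 were higher and 6 were lower in MDA-MB-231, and the median log2 fold change was -0.53. KRT19 stood at 5.01 and 7.72 under YAPi and 19.21 and 7.65 under TAZi in ER-Src and at 400.5 and 419 under YAPi and 499 and 483 under TAZi in MDA-MB-231 (log2 fold change 6.57, SE 0.25, adjusted p 1.1e-144), and KRT80 was higher as well (log2 fold change 3.96, SE 0.29, adjusted p 2.7e-40). KRT7 was lower, at 4090.2 to 4897 in ER-Src and 543 to 859 in MDA-MB-231 (log2 fold change -2.66, SE 0.11, adjusted p 6e-117). ESR1, the estrogen receptor, stood at 1646 to 1946 in ER-Src and 0 to 14.8 in MDA-MB-231 (log2 fold change -8.61, SE 0.60, adjusted p 4.6e-45), and as the fusion carries part of this gene, reads from the transgene and from the endogenous gene cannot be told apart.

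**Figure D3:**
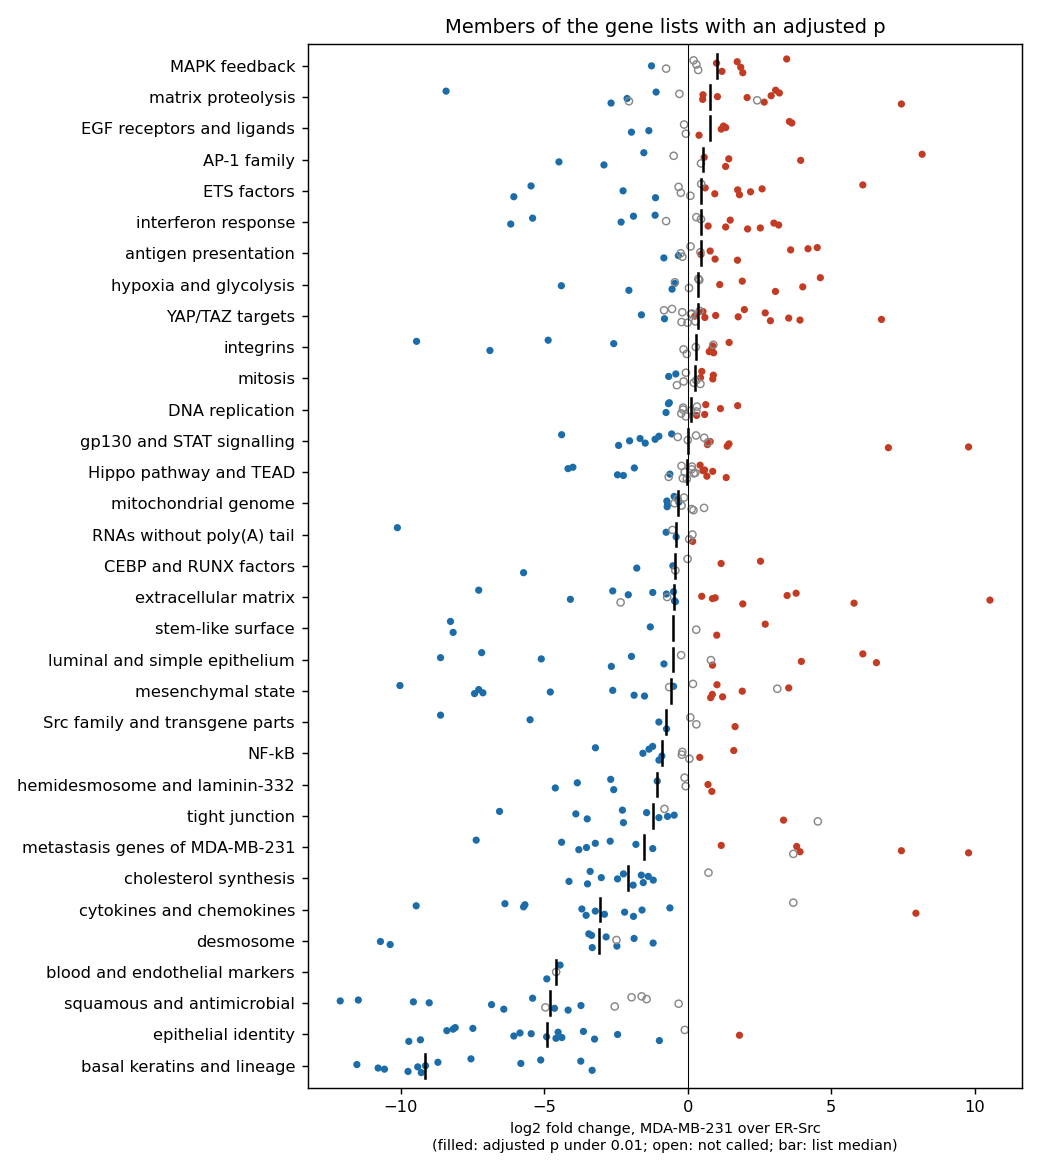
Log2 fold change of MDA-MB-231 over ER-Src for the members with an adjusted p of the gene lists shown, 1 row per list ordered by its median (black bar), with filled points for genes called at an adjusted p under 0.01 (red higher, blue lower) and open points for genes not called. The basal list (median -9.13) and the epithelial list (median -4.91) lie far to the left, and the median of the YAP/TAZ target list is 0.34.

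The mesenchymal list did not follow vimentin. In this list 18 of 18 genes had an adjusted p, 6 were higher and 9 were lower in MDA-MB-231, and the median log2 fold change was -0.57. Relative to ER-Src ETH 7 were called higher and 6 lower, and with protein-coding totals 7 and 7. In the control siRNA libraries 5 were called higher and 11 lower, so the balance depends on the reference and the scaling. AXL, a receptor tyrosine kinase and YAP/TAZ target, stood at 129.9 and 129 under YAPi and 99.3 and 94.6 under TAZi in ER-Src and at 1729 and 1514 under YAPi and 912 and 791 under TAZi in MDA-MB-231 (log2 fold change 3.52, SE 0.11, adjusted p 4.3e-231). The repressors of CDH1 split: ZEB1 (47.9 to 66.0 in ER-Src and 78.8 to 130.1 in MDA-MB-231, log2 fold change 1.22, adjusted p 1.5e-21) and SNAI2 (log2 fold change 0.86, adjusted p 1.6e-10) were higher, whereas ZEB2 (log2 fold change -1.502, adjusted p 7.8e-11), SNAI1 (log2 fold change -1.86, adjusted p 0.00509), TWIST1 and TWIST2 were lower in MDA-MB-231. TWIST1 stood at 59.9 to 65.9 in ER-Src, and neither TWIST gene had a count in MDA-MB-231 (at least 42.7-fold and at least 34.9-fold). POSTN (periostin) stood at 273 and 237 under YAPi and 239 and 196 under TAZi in ER-Src, a ratio of 1265 on 1 count in the lower line (95% counting interval 227 to 49957). SPARC, a matrix protein, stood at 294 and 339 under YAPi and 395 and 396 under TAZi in ER-Src and at 6.81 and 0 under YAPi and 1.84 and 2.27 under TAZi in MDA-MB-231 (log2 fold change -7.28, SE 0.66, adjusted p 2.9e-27). N-cadherin, CDH2, stood at 33.4 to 44.3 in ER-Src and 0.651 to 4.87 in MDA-MB-231 (log2 fold change -4.78, adjusted p 3.4e-21), and fibronectin, FN1, at 541 to 1070.5 in ER-Src and 102 to 202 in MDA-MB-231 (log2 fold change -2.61, SE 0.23, adjusted p 1.5e-28). Several of the genes that were lower, among them CDH2, SPARC, POSTN and TWIST1, are themselves mesenchymal markers.

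Matrix genes were likewise split: 19 of 20 genes had an adjusted p, 8 were higher and 9 were lower in MDA-MB-231, and the median log2 fold change was -0.46. COL5A1, a fibrillar collagen, stood at 69.8 and 77.2 under YAPi and 94.0 and 73.8 under TAZi in MDA-MB-231, a ratio to ER-Src of 1474 on 3 counts in the lower line (95% counting interval 503 to 7162). THBS1, thrombospondin, stood at 451 and 420.4 under YAPi and 631 and 563 under TAZi in ER-Src and at 7092 and 6853 under YAPi and 7382 and 7080.4 under TAZi in MDA-MB-231 (log2 fold change 3.78, SE 0.063; edgeR adjusted p 8.8e-10), and LAMA4 was higher too (log2 fold change 3.46, adjusted p 5e-13). For THBS1 the control siRNA libraries of the same lines gave a log2 fold change of -0.03, but the MDA-MB-231 controls are of another library type. Genes of matrix proteolysis leaned to MDA-MB-231: 16 of 18 genes had an adjusted p, 9 were higher and 4 were lower in MDA-MB-231, and the median log2 fold change was 0.79. The collagenase MMP1 stood at 2.89 and 3.77 under YAPi and 1.13 and 1.79 under TAZi in ER-Src and at 414 and 418 under YAPi and 423 and 451 under TAZi in MDA-MB-231 (log2 fold change 7.44, SE 0.30, adjusted p 2e-134). PLAU, urokinase (89.2 to 108 in ER-Src and 641 to 919.6 in MDA-MB-231, log2 fold change 2.91, adjusted p 1.7e-192), and the metalloprotease ADAM19 (log2 fold change 3.07, adjusted p 1.2e-23) were higher as well. SERPINB5, the epithelial serpin maspin, was lower, at 407 to 868 in ER-Src and 0 to 5.62 in MDA-MB-231 (log2 fold change -8.41, SE 0.57, adjusted p 1.5e-47). Of the integrins, 13 of 13 genes had an adjusted p, 5 were higher and 4 were lower in MDA-MB-231, and the median log2 fold change was 0.28. ITGB6 and ITGB8, the chains that pair with ITGAV to activate TGF-beta, were lower, ITGB6 at 245 to 349 in ER-Src and 0 to 6.46 in MDA-MB-231 and ITGB8 at 67.9 to 111 in ER-Src and 1.77 to 4.67 in MDA-MB-231 (log2 fold change -4.86, adjusted p 4.1e-72), and ITGB5 was higher (127 to 190.2 in ER-Src and 429 to 585 in MDA-MB-231, log2 fold change 1.44, adjusted p 1.5e-32).

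In the Hippo pathway itself, 21 of 22 genes had an adjusted p, 6 were higher and 6 were lower in MDA-MB-231, and the median log2 fold change was -0.03. Against ER-Src ETH 8 were called higher and 3 lower, and in the control siRNA libraries 5 higher and 9 lower. Protein-coding totals gave 9 higher and 6 lower, so this balance depends on the reference and the scaling. NF2, merlin, stood at 172 and 201 under YAPi and 161 and 171 under TAZi in ER-Src and at 20.1 and 12.5 under YAPi and 10.5 and 7.67 under TAZi in MDA-MB-231, which is 18.0-fold lower (log2 fold change -4.17, SE 0.21, adjusted p 2.1e-84). The kinases were close between the lines: LATS1 (0.22), LATS2 (0.27) and STK3 (-0.10) were not called, and STK4 was higher (log2 fold change 0.87, adjusted p 1.7e-11). TEAD1 was higher in MDA-MB-231, at 77.5 to 95.5 in ER-Src and 190.3 to 230.3 in MDA-MB-231 (log2 fold change 1.34, SE 0.079, adjusted p 2.2e-62), and TEAD4 lower, at 124 to 129 in ER-Src and 20.4 to 39.3 in MDA-MB-231 (log2 fold change -2.24, SE 0.21, adjusted p 2.8e-25). VGLL3, a cofactor that binds TEAD proteins, was lower (69.6 to 104 in ER-Src and 11.2 to 17.3 in MDA-MB-231, log2 fold change -2.44, adjusted p 2.7e-38). WWC1 (KIBRA), an upstream activator of the pathway, was lower than in tamoxifen-treated ER-Src (log2 fold change -1.86, adjusted p 4.5e-40), but against the vehicle (ETH) libraries of ER-Src with the same siRNAs it was higher by 0.60 (adjusted p 0.00041).

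Genes known as YAP/TAZ targets were more often higher than lower in MDA-MB-231: 22 of 22 genes had an adjusted p, 11 were higher and 2 were lower in MDA-MB-231, and the median log2 fold change was 0.34. Relative to ER-Src ETH the lean was smaller, with 8 called higher and 5 lower. In the control siRNA libraries 11 were called higher and 5 lower, and with protein-coding totals 14 higher and 1 lower. The 4 with the largest differences were ANKRD1, CCN2, AXL (given above) and CCN1. ANKRD1, a nuclear ankyrin-repeat protein, stood at 3.92 and 6.79 under YAPi and 5.04 and 4.96 under TAZi in ER-Src and at 499 and 609.5 under YAPi and 591 and 597 under TAZi in MDA-MB-231 (log2 fold change 6.75, SE 0.19, adjusted p 7.4e-281). CCN2, a matricellular protein, stood at 8.80 and 10.4 under YAPi and 8.26 and 7.36 under TAZi in ER-Src and at 155 and 173 under YAPi and 85.9 and 117 under TAZi in MDA-MB-231 (log2 fold change 3.91, SE 0.19, adjusted p 5.2e-96), and its relative CCN1 at 82.2 and 77.5 under YAPi and 136 and 101 under TAZi in ER-Src and 801 and 804 under YAPi and 719.6 and 642 under TAZi in MDA-MB-231 (log2 fold change 2.88, SE 0.16, adjusted p 1.8e-67). These 4 genes were picked as the largest differences of the list, and the lines did not overlap for any of them. NT5E, the ectonucleotidase CD73, was also higher (174 to 342 in ER-Src and 1064 to 1711 in MDA-MB-231, log2 fold change 2.70, adjusted p 6.7e-97). Other targets showed no called difference, among them AMOTL2 (-0.21), LATS2 (0.27), GADD45A (0.11) and MYOF (adjusted p 0.987). ASAP1 and FOXF2 were lower (log2 fold change -0.81, adjusted p 0.0005, and log2 fold change -1.61, adjusted p 4.7e-07), the first without a call when the effective length was an offset (adjusted p 0.212). As all 8 libraries come from cells given siRNA against YAP or TAZ, these are levels with 1 of the 2 co-activators reduced.

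The promoters of the strongest of these targets are shown because TEAD proteins are the main route of YAP and TAZ to DNA, beside that of KRT5, which differed the other way. Each is the 250 bases before the gene's start in RefSeq (GRCh38.p14), with capitals on the 6-base TEAD core GGAATG or CATTCC, the 7-base AP-1 site TGAGTCA or TGACTCA, and the 6-base E-box CAGGTG or CACCTG, which ZEB and SNAI repressors recognize. CCN2 lies at chr6:131951373-131951622, minus strand, ANKRD1 at chr10:90921088-90921337, minus strand and KRT5 at chr12:52520395-52520644, minus strand.
CCN2: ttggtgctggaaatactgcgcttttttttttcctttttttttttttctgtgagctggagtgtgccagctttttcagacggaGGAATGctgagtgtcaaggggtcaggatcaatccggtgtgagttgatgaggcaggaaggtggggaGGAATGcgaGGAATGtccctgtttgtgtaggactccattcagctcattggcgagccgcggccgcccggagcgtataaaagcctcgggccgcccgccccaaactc
ANKRD1: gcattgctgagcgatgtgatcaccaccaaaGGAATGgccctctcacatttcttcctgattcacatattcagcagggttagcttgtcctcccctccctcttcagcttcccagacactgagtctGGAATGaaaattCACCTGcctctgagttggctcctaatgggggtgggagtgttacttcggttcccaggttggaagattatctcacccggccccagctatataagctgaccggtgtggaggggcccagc
KRT5: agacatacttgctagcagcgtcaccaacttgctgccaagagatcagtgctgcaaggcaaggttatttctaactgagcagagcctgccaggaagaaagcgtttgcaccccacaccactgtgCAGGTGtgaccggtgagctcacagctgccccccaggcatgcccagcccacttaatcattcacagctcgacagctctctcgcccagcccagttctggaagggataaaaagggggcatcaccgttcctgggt
The CCN2 window holds 3 TEAD cores and the ANKRD1 window 2 with 1 E-box. The KRT5 window holds 1 E-box and no TEAD core. Of the 27305 promoter windows of RefSeq, 11.9% hold a TEAD core, 17.5% an E-box and 4.16% an AP-1 site. The table held 16 of the 22 YAP/TAZ targets, and 6 of them (37.5%) have a TEAD core in the window. A match is a description of these letters, and binding was not measured in these libraries.

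The AP-1 genes moved both ways: 10 of 10 genes had an adjusted p, 5 were higher and 3 were lower in MDA-MB-231, and the median log2 fold change was 0.52. FOS stood at 169 and 93.7 under YAPi and 322 and 263 under TAZi in ER-Src and at 5.69 and 6.17 under YAPi and 20.7 and 8.29 under TAZi in MDA-MB-231 (log2 fold change -4.48, SE 0.35, adjusted p 3.9e-35), and JUNB at 781 and 678 under YAPi and 912 and 841 under TAZi in ER-Src and at 133 and 109 under YAPi and 113 and 78.1 under TAZi in MDA-MB-231 (log2 fold change -2.91, SE 0.17, adjusted p 1.7e-62). FOSL1, the FRA1 protein of invasive breast lines, stood at 49.8 to 80.8 in ER-Src and 137 to 211 in MDA-MB-231 (log2 fold change 1.43, SE 0.15, adjusted p 1.8e-21) and JUN at 77.9 to 111 in ER-Src and 210.3 to 229.8 in MDA-MB-231 (log2 fold change 1.32, SE 0.13, adjusted p 1.6e-23), both without overlap. FOSL2 was higher by a small margin (log2 fold change 0.58, adjusted p 1.5e-09), JUND and ATF3 were not called, and BATF, an AP-1 member of lymphoid cells, stood at 12.7 to 48.3 in MDA-MB-231 with no count in ER-Src (at least 79.6-fold). Of the CEBP and RUNX factors, 7 of 8 genes had an adjusted p, 2 were higher and 3 were lower in MDA-MB-231, and the median log2 fold change was -0.43. RUNX2, known for bone and invasive breast cancer, stood at 8.29 to 11.9 in ER-Src and 40.8 to 65.2 in MDA-MB-231 (log2 fold change 2.54, SE 0.17, adjusted p 1.1e-48) and RUNX1 at 24.9 to 36.7 in ER-Src and 62.6 to 124 in MDA-MB-231 (log2 fold change 1.17, SE 0.14, adjusted p 8.3e-16). CEBPD, an acute-phase factor downstream of STAT3, was lower, at 296 to 442 in ER-Src and 70.6 to 168 in MDA-MB-231 (log2 fold change -1.77, SE 0.25, adjusted p 1.6e-11), and CEBPB was not called (-0.43).

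Among ETS factors, 15 of 16 genes had an adjusted p, 7 were higher and 4 were lower in MDA-MB-231, and the median log2 fold change was 0.47. ELF3, an epithelial factor, stood at 186 to 474 in ER-Src and 2.85 to 15.7 in MDA-MB-231 (log2 fold change -6.05, SE 0.45, adjusted p 7.5e-39) and ETS2 at 424 to 739 in ER-Src and 102 to 143 in MDA-MB-231 (log2 fold change -2.25, SE 0.15, adjusted p 9e-48). In ER-Src ETH, however, ELF3 stood at 29.5 and 30.6 under YAPi and 14.1 and 13.97 under TAZi. These levels are far below TAM, and MDA-MB-231 TAZi replicate 2 (15.7) lies within their range. ETS2 stood in ETH at 117 and 95.7 under YAPi and 235 and 207 under TAZi, which overlaps MDA-MB-231, and relative to ETH it was not called (-0.34, adjusted p 0.21). ETS1, a factor of invasive cells, was higher in MDA-MB-231, at 64.4 and 72.7 under YAPi and 53.3 and 48.3 under TAZi in ER-Src and 279.9 and 265 under YAPi and 275 and 286 under TAZi in MDA-MB-231 (log2 fold change 2.19, SE 0.14, adjusted p 5.5e-56), and ETV4, an output of MAPK signalling, at 16.1 to 19.9 in ER-Src and 81.3 to 135 in MDA-MB-231 (log2 fold change 2.59, SE 0.22, adjusted p 3.5e-30). EHF, an epithelial factor close to ELF3, was on the other side from ELF3, as given above.

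For the gp130 cytokines and their pathway, 19 of 20 genes had an adjusted p, 6 were higher and 8 were lower in MDA-MB-231, and the median log2 fold change was 0.00. Against ER-Src ETH 8 were called higher and 4 lower, so the balance depends on the reference. The ligands IL11, IL6 and LIF were higher and the feedback gene SOCS3 lower in MDA-MB-231. IL11 stood at 1.72 and 1.01 under YAPi and 0 and 0.637 under TAZi in ER-Src and at 384 and 295 under YAPi and 581 and 355 under TAZi in MDA-MB-231 (log2 fold change 9.78, SE 0.58, adjusted p 1.8e-61). IL6 stood at 5.25 and 2.87 under YAPi and 5.53 and 6.53 under TAZi in ER-Src and at 224 and 237 under YAPi and 974 and 1050.1 under TAZi in MDA-MB-231 (log2 fold change 6.99, SE 0.35, adjusted p 1.3e-86), and the MDA-MB-231 TAZi libraries lay well above the YAPi libraries. LIF was higher as well (log2 fold change 1.38, adjusted p 3.3e-18). SOCS3, the feedback inhibitor induced by STAT3, stood at 474 and 410.2 under YAPi and 710.3 and 696 under TAZi in ER-Src and at 36.7 and 23.1 under YAPi and 27.6 and 20.8 under TAZi in MDA-MB-231 (log2 fold change -4.39, SE 0.23, adjusted p 5.2e-80). STAT3 stood at 593 to 760.4 in ER-Src and 184 to 284 in MDA-MB-231 (log2 fold change -1.66, SE 0.12, adjusted p 7.5e-43), the receptor IL6R at 32.2 to 73.8 in ER-Src and 6.76 to 14.5 in MDA-MB-231 (log2 fold change -2.41, SE 0.23, adjusted p 1.1e-23) and the shared subunit IL6ST at 464 to 558 in ER-Src and 517 to 1000.2 in MDA-MB-231 (log2 fold change 0.69, adjusted p 1.2e-12). The IL11 promoter, at chr19:55370464-55370713, minus strand, is printed in the same way beside those of the YAP/TAZ targets, and its window holds 1 AP-1 site and no TEAD core.
IL11: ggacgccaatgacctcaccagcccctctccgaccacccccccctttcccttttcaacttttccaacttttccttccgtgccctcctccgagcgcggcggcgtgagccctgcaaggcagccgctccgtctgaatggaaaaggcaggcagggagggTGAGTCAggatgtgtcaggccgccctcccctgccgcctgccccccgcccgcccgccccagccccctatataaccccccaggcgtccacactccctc

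The vehicle (ETH) libraries of ER-Src give a second reference for these genes. In the ETH libraries of ER-Src with the same siRNAs, SOCS3 stood at 11.3 ± 2.68 (SD, n = 4), against 573 ± 153 in TAM and 27.0 ± 7.02 in MDA-MB-231, and relative to ETH it was higher in MDA-MB-231 (log2 fold change 1.26, adjusted p 0.0001). STAT3 stood at 287 ± 37.0 in ETH, 700.2 ± 74.2 in TAM and 231 ± 43.7 in MDA-MB-231, with a log2 fold change of -0.38 relative to ETH (adjusted p 0.0141). FOS stood at 57.1 ± 19.3 in ETH and JUNB at 247 ± 41.9, and both were lower in MDA-MB-231 than in ETH too (log2 fold change -2.49, adjusted p 4.7e-11, and -1.22, adjusted p 3.7e-09). S100A9 stood in ETH at 9798 and 9566 under YAPi and 2169 and 2427 under TAZi, and at 80300 ± 12593 in TAM. Each SD of this paragraph pools the YAPi and TAZi libraries and so includes any difference between the siRNAs. SERPINB3 stood at 26.5 ± 8.14 in ETH and 5305 ± 2158 in TAM, and its log2 fold change was -10.71 relative to TAM and -3.19 relative to ETH. CDH1, KRT5 and VIM gave log2 fold changes of -9.79, -9.69 and 0.61 relative to ETH. Relative to ETH 7721 genes were called (38.7%), a comparison that shares the MDA-MB-231 libraries with the main one. Of the genes named here as called relative to TAM, STAT3, ETS2, CEBPD, ZEB2, ASAP1, CXCL8, RN7SL2, SNAI1 and LDHA had no call relative to ETH, the last 2 with the opposite sign (1.79 and 0.19).

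**Figure D4:**
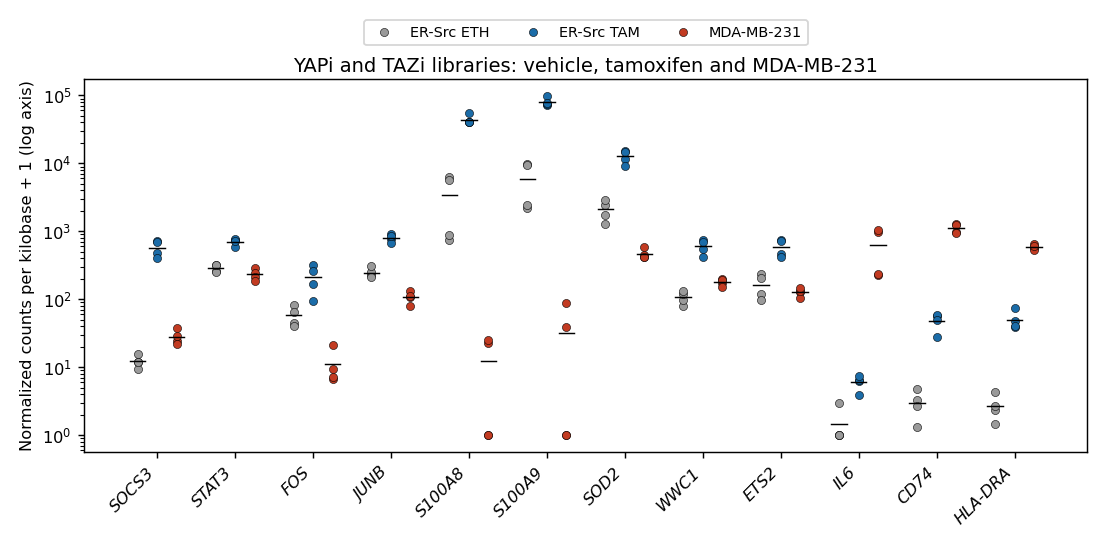
Level per library (normalized counts per kilobase plus 1, log axis) of 12 genes in the YAPi and TAZi libraries of ER-Src under vehicle (ETH, grey), ER-Src under tamoxifen (TAM, blue) and MDA-MB-231 (red), 4 libraries each, with a black bar at the mean. SOCS3 in MDA-MB-231 (20.8 to 36.7) lies above ETH (8.36 to 14.9) and below TAM (410.2 to 710.3), and IL6, CD74 and HLA-DRA are highest in MDA-MB-231.

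Inflammatory cytokines and chemokines were mostly lower in MDA-MB-231: 14 of 19 genes had an adjusted p, 1 was higher and 12 were lower in MDA-MB-231, and the median log2 fold change was -3.06. CCL20, an attractant of lymphocytes and dendritic cells, stood at 2514 and 2398 under YAPi and 1722 and 1858 under TAZi in ER-Src and at 3.19 and 9.07 under YAPi and 0 and 0 under TAZi in MDA-MB-231 (log2 fold change -9.45, SE 0.75, adjusted p 6.1e-35). IL1B (348 to 645 in ER-Src and 22.4 to 46.5 in MDA-MB-231, log2 fold change -3.54, adjusted p 9.2e-32), CXCL1 (1635 to 2143 in ER-Src and 133 to 301 in MDA-MB-231, log2 fold change -3.22, adjusted p 9.6e-68) and CXCL3 (log2 fold change -3.68, adjusted p 4.1e-37) were lower, and CXCL8 differed by a small margin (log2 fold change -0.62, adjusted p 1.4e-05). CSF2, the growth factor GM-CSF, was the one cytokine of the list called higher, at 0 to 0.935 in ER-Src and 109 to 172 in MDA-MB-231 (log2 fold change 7.95, SE 0.76, adjusted p 2.5e-24). Relative to ER-Src ETH 6 of the list were called lower and 2 higher, and in the control siRNA libraries 8 lower and 3 higher. CXCL8 had no call relative to ETH (log2 fold change -0.01) and was higher in the control libraries (log2 fold change 1.73, adjusted p 1e-37), where CXCL3 had no call (adjusted p 0.22). Of the NF-kB genes, 11 of 11 genes had an adjusted p, 2 were higher and 6 were lower in MDA-MB-231, and the median log2 fold change was -0.90, with TNFAIP3 (A20), a feedback inhibitor, at 97.6 to 123 in ER-Src and 7.57 to 14.1 in MDA-MB-231 (log2 fold change -3.21, SE 0.23, adjusted p 6.1e-41), NFKBIA at 862 to 1068 in ER-Src and 249.9 to 396 in MDA-MB-231 (log2 fold change -1.56, adjusted p 2.7e-27) and NFKBIE higher (log2 fold change 1.61, adjusted p 6.4e-15). Relative to ETH 3 of the NF-kB genes were called lower and 1 higher.

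EGF-family genes leaned to MDA-MB-231, with 6 higher and 2 lower of 10 (median 0.78). Against ER-Src ETH 5 were called higher and 3 lower. The control siRNA libraries gave 3 higher and 3 lower, so the lean depends on the reference. NRG1, a ligand of ERBB3 and ERBB4, stood at 4.45 to 14.3 in ER-Src and 124 to 201 in MDA-MB-231 (log2 fold change 3.54, SE 0.22, adjusted p 3e-58), and HBEGF (log2 fold change 1.33, adjusted p 6e-09) and TGFA (log2 fold change 1.25, adjusted p 3.7e-10) were higher, TGFA with lines that overlapped. AREG was lower (784 to 1058 in ER-Src and 278 to 392 in MDA-MB-231, log2 fold change -1.35, adjusted p 1.1e-19). Genes of MAPK feedback, which are induced by ERK activity, gave 6 higher and 1 lower of 11 (median 1.01). IER3 stood at 187 to 293 in ER-Src and 2224 to 2607 in MDA-MB-231 (log2 fold change 3.45, SE 0.14, adjusted p 1.7e-131), and DUSP4 (log2 fold change 1.92, adjusted p 2.6e-34), SPRY2 (log2 fold change 1.85, adjusted p 1.8e-41) and PHLDA1 (log2 fold change 1.73, adjusted p 1.3e-67) were higher. DUSP6 was not called (0.37). Of the Src family, 1 was higher and 4 lower of 7, ESR1 included. SRC stood at 100.2 to 112 in ER-Src and 25.7 to 38.3 in MDA-MB-231 (log2 fold change -0.74, SE 0.19, adjusted p 0.00028), and the difference was larger with the effective length as an offset (-1.84). FYN was higher (log2 fold change 1.65, adjusted p 9.1e-18) and LYN lower (log2 fold change -1.001, adjusted p 2.2e-13), the last with the opposite sign relative to ETH (0.50). The viral transgene has no row of its own among the genes counted, so its level was not measured here. Whether any of its reads were counted under SRC was not tested.

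Genes of growth differed less. Among DNA replication genes, 15 of 15 genes had an adjusted p, 5 were higher and 3 were lower in MDA-MB-231, and the median log2 fold change was 0.12, and among mitosis genes, 12 of 12 genes had an adjusted p, 4 were higher and 2 were lower in MDA-MB-231, and the median log2 fold change was 0.26. No member of either list reached a 4-fold difference. The largest was E2F1, a factor of S-phase entry, at 36.2 to 40.0 in ER-Src and 93.1 to 208 in MDA-MB-231 (log2 fold change 1.74, SE 0.22, adjusted p 5.4e-14), followed in the mitosis list by the kinases BUB1 (log2 fold change 0.90, adjusted p 4.9e-06) and AURKA (log2 fold change 0.88, adjusted p 3.5e-14). MKI67, TOP2A and CDK1 were not called. With libraries scaled to protein-coding totals 8 replication genes were higher and 1 lower, and 7 mitosis genes higher and 0 lower, so these small differences rest on the scaling.

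Among genes of growth arrest, death and repair, the death receptor FAS stood at 168 to 207 in ER-Src and 7.22 to 20.5 in MDA-MB-231 (log2 fold change -3.75, SE 0.27, adjusted p 5.2e-43), the sestrin gene SESN1 at 91.1 to 119 in ER-Src and 8.48 to 26.5 in MDA-MB-231 (log2 fold change -2.09, SE 0.23, adjusted p 9.9e-19) and the repair gene XPC at 58.9 to 91.2 in ER-Src and 18.9 to 31.0 in MDA-MB-231 (log2 fold change -2.03, SE 0.19, adjusted p 5.1e-25). The ubiquitin ligase MDM2 was lower (log2 fold change -1.69, adjusted p 1.1e-31), and the cell cycle inhibitor CDKN1A was not called (-0.24). The neighbouring 9p21 genes CDKN2A and CDKN2B had 0 counts in all 8 libraries, and MTAP had at most 2 in any, so no difference between the lines was detectable there.

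Interferon-stimulated genes split within the list: 15 of 15 genes had an adjusted p, 7 were higher and 5 were lower in MDA-MB-231, and the median log2 fold change was 0.46. ISG15 stood at 71.7 to 92.7 in ER-Src and 342 to 362 in MDA-MB-231 (log2 fold change 2.09, SE 0.16, adjusted p 8.9e-39) and MX1 at 4.36 to 6.81 in ER-Src and 38.4 to 56.8 in MDA-MB-231 (log2 fold change 3.17, adjusted p 1.3e-29), whereas IFI44L stood at 83.9 to 148 in ER-Src and 0.412 to 3.85 in MDA-MB-231 (log2 fold change -5.40, SE 0.47, adjusted p 2.3e-29) and OAS3 at 54.6 to 76.6 in ER-Src and 16.1 to 20.2 in MDA-MB-231 (log2 fold change -2.32, adjusted p 1.6e-38). OAS2 was higher (log2 fold change 3.004, adjusted p 3.4e-17) and OAS1 lower, with a ratio of 74.7 on 2 counts in the lower line (95% counting interval 20.6 to 618). In antigen presentation, 13 of 13 genes had an adjusted p, 7 were higher and 2 were lower in MDA-MB-231, and the median log2 fold change was 0.46. The class II genes led: CD74, the invariant chain, stood at 56.2 and 26.6 under YAPi and 57.7 and 48.4 under TAZi in ER-Src and at 1283 and 987 under YAPi and 1257 and 932 under TAZi in MDA-MB-231 (log2 fold change 4.51, SE 0.23, adjusted p 3.8e-84), HLA-DRA at 37.8 to 73.3 in ER-Src and 528 to 643 in MDA-MB-231 (log2 fold change 3.59, SE 0.18, adjusted p 2.7e-90) and HLA-DRB1 at 8.98 to 20.3 in ER-Src and 169.6 to 279 in MDA-MB-231 (log2 fold change 4.19, SE 0.28, adjusted p 3.5e-49). In ETH the class II levels of ER-Src were lower still, with CD74 at 2.01 ± 1.42 (SD, n = 4) and HLA-DRA at 1.72 ± 1.19. B2M, the light chain of class I molecules, was not called (-0.18). HLA genes are similar in sequence and differ between lines in their alleles, which can shift their read counts.

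Of the surface genes used to sort stem-like breast cells, 6 of 9 genes had an adjusted p, 2 were higher and 3 were lower in MDA-MB-231, and the median log2 fold change was -0.50. CD44 was higher (971 to 1398 in ER-Src and 1825 to 2205 in MDA-MB-231, log2 fold change 1.01, adjusted p 1.2e-22), CD24 lower as given above, CD109 lower (75.7 to 114 in ER-Src and 0 to 0.727 in MDA-MB-231, log2 fold change -8.26, adjusted p 2.2e-34) and PROCR lower (log2 fold change -1.30, adjusted p 3.6e-12), with ALDH1A3 not called (0.30). Genes known from metastasis work in MDA-MB-231 cells did not move one way, as 14 of 15 genes had an adjusted p, 5 were higher and 8 were lower in MDA-MB-231, and the median log2 fold change was -1.51. IL11, CCN2 and MMP1 were higher as given above, and so was PTGS2, which makes prostaglandins (19.9 to 34.3 in ER-Src and 268 to 348 in MDA-MB-231, log2 fold change 3.80, adjusted p 5.5e-85). KYNU, an enzyme of tryptophan breakdown, stood at 2078 to 2498 in ER-Src and 8.46 to 28.9 in MDA-MB-231 (log2 fold change -7.37, adjusted p 4.5e-141). The secreted lipase inhibitor ANGPTL4 (841 to 1641 in ER-Src and 73.8 to 163 in MDA-MB-231, log2 fold change -3.52, adjusted p 2.2e-174), the actin bundler FSCN1 (291 to 386 in ER-Src and 10.5 to 26.7 in MDA-MB-231, log2 fold change -4.39, adjusted p 4.6e-64) and LTBP1 (log2 fold change -2.70, adjusted p 2.6e-97) were lower in MDA-MB-231 than in ER-Src TAM. CXCR4 was not called (adjusted p 0.0724), with 3 counts in ER-Src.

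In metabolism, cholesterol synthesis stood out: 12 of 12 genes had an adjusted p, 0 were higher and 11 were lower in MDA-MB-231, and the median log2 fold change was -2.07. SQLE, a rate-limiting enzyme of sterol synthesis, stood at 725 and 634 under YAPi and 464 and 507 under TAZi in ER-Src and at 35.4 and 31.9 under YAPi and 59.3 and 34.2 under TAZi in MDA-MB-231 (log2 fold change -4.13, SE 0.16, adjusted p 6.8e-145), HMGCS1 at 669 to 915 in ER-Src and 64.0 to 104 in MDA-MB-231 (log2 fold change -3.49, SE 0.14, adjusted p 4.8e-137), MVD at 578 to 691 in ER-Src and 53.6 to 89.3 in MDA-MB-231 (log2 fold change -3.40, SE 0.18, adjusted p 6.8e-75) and FDPS at 4259 to 5597 in ER-Src and 563 to 708 in MDA-MB-231 (log2 fold change -3.01, SE 0.12, adjusted p 4.4e-130). INSIG1 alone was not called (0.73). The media differ in their serum, charcoal-stripped for ER-Src, and its part in this result was not tested. Of the hypoxia and glycolysis genes, 13 of 13 genes had an adjusted p, 5 were higher and 4 were lower in MDA-MB-231, and the median log2 fold change was 0.37. The glucose transporter SLC2A1 stood at 126 to 211 in ER-Src and 1056 to 1471 in MDA-MB-231 (log2 fold change 3.06, SE 0.15, adjusted p 6.5e-94) and the enolase ENO2 at 4.70 to 13.1 in ER-Src and 133 to 203 in MDA-MB-231 (log2 fold change 4.62, SE 0.25, adjusted p 4.5e-75), while the carbonic anhydrase CA12 (181 to 438 in ER-Src and 7.94 to 23.7 in MDA-MB-231, log2 fold change -4.40, adjusted p 1.6e-46) and the hexokinase HK2 (log2 fold change -2.05, adjusted p 2.1e-24) were lower. LDHA was lower by a small margin (log2 fold change -0.54, adjusted p 0.00062), and PGK1 was not called (0.05). The mitochondrially encoded genes gave 6 lower of 13 (median -0.33), but 3 with edgeR, and 3 higher and 3 lower with protein-coding totals, with MT-CO2 at -0.72.

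Among the RNAs without a poly(A) tail, 7 of 7 genes had an adjusted p, 1 was higher and 3 were lower in MDA-MB-231, and the median log2 fold change was -0.40. The small nucleolar RNA SNORD3B-1 had 0 to 35.7 in MDA-MB-231 and 32594 to 46980 in ER-Src (log2 fold change -10.11, adjusted p 9.9e-114), with its near-identical relative SNORD3A not called (-0.53), so that the sharing of reads between these copies is uncertain. RN7SK (0.17) and RN7SL2 (-0.40) differed by small amounts only, and the former was not called by edgeR (adjusted p 0.135).

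Whether the line difference depended on the siRNA was tested as an interaction. It was called at 212 of 10715 genes with an adjusted p (1.98%), 124 (1.16%) with a larger MDA-MB-231 to ER-Src ratio under YAPi and 88 (0.821%) with a larger ratio under TAZi. At an unadjusted p under 0.05 there were 1569 of the 34389 genes with a p-value, a wider set than the 10715. As a share this is below 0.05, the threshold itself, so the count alone shows no excess. With edgeR 9 genes were called. Among the 5 genes with the smallest adjusted p, of those that averaged 100 or more normalized counts, were CLDN4, ADGRF1, UHMK1 and HMOX1, and edgeR called all 4 (adjusted p 7.7e-05 to 0.00512). CLDN4, the claudin of tight junctions, stood at 93.9 and 100.1 in ER-Src YAPi_TAM, 3.81 and 2.13 in ER-Src TAZi_TAM, 184 and 142 in MDA-MB-231 YAPi and 155 and 157 in MDA-MB-231 TAZi. It was low in ER-Src TAZi alone, and the log2 fold change between the lines was 0.74 under YAPi and 6.01 under TAZi (interaction -5.26, SE 0.45, adjusted p 9e-28). ADGRF1, an adhesion G protein-coupled receptor, was also lowest in ER-Src TAZi, at 63.0 and 67.3 in ER-Src YAPi_TAM, 13.8 and 9.28 in ER-Src TAZi_TAM, 437 and 457 in MDA-MB-231 YAPi and 562 and 468 in MDA-MB-231 TAZi (interaction -2.44, SE 0.23, adjusted p 1.8e-23). Unlike CLDN4, ADGRF1 was far lower in ER-Src than in MDA-MB-231 under YAPi as well. HMOX1, heme oxygenase, differed on the MDA-MB-231 side instead, at 51.7 and 71.1 in ER-Src YAPi_TAM, 36.0 and 39.1 in ER-Src TAZi_TAM, 103 and 74.1 in MDA-MB-231 YAPi and 536 and 475 in MDA-MB-231 TAZi (interaction -3.30, SE 0.33, adjusted p 8.7e-20). UHMK1, a kinase that binds splicing factors, stood at 204 and 207 in ER-Src YAPi_TAM, 248 and 272 in ER-Src TAZi_TAM, 80.7 and 89.4 in MDA-MB-231 YAPi and 289.8 and 327 in MDA-MB-231 TAZi and was lowest in MDA-MB-231 YAPi (interaction -1.53, adjusted p 5.7e-21). For VIM the interaction was not called (0.13, SE 0.10, adjusted p 0.697). CDH1 and KRT5 had too few counts in MDA-MB-231 for this test to bear on them. Without both MDA-MB-231 replicate 1 libraries the count fell to 25 of 3037 genes with an adjusted p, and without both replicate 2 libraries to 26 of 3664. It rose to 528 with the replicate number as a block within each line, a fit chosen after seeing the data, since same-numbered YAPi and TAZi libraries of a line deviated together.

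**Figure D5:**
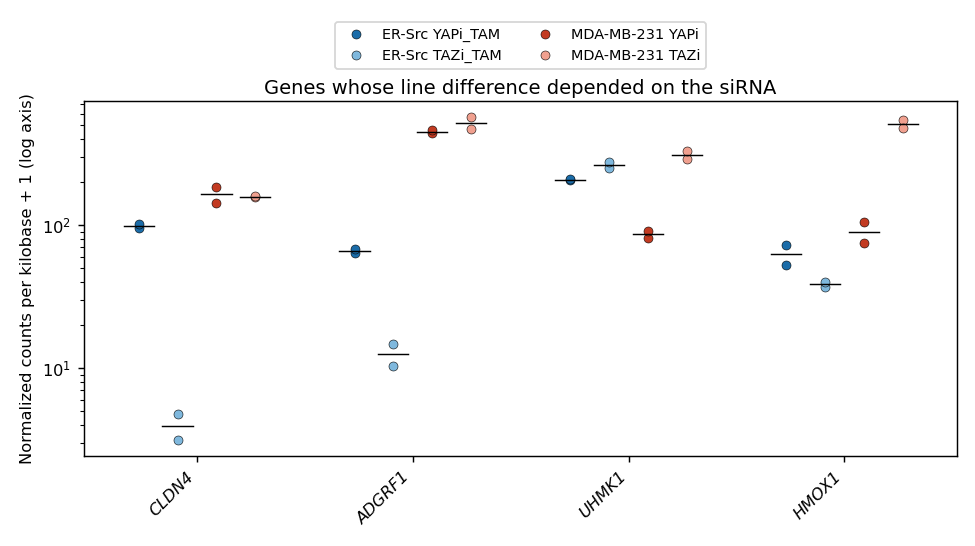
Level per library (normalized counts per kilobase plus 1, log axis) of 4 of the 5 genes with the smallest adjusted p for the interaction of line and siRNA, with 1 point per library and a black bar at the mean of the 2 libraries of a group. CLDN4 and ADGRF1 are lowest in ER-Src TAZi, and ADGRF1 is also far lower in ER-Src YAPi than in MDA-MB-231. HMOX1 is high in MDA-MB-231 TAZi only, at 536 and 475.

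The control siRNA libraries of the same lines share no library with the comparison above, but the MDA-MB-231 controls hold almost no RNA without a poly(A) tail and are thus of another library type. Between the ER-Src Ctrli_TAM and MDA-MB-231 Ctrli libraries 8024 of 20534 genes were called (39.1%). Over the 18966 genes tested in both, 4892 were called in the same direction, which is 60.7% of the calls under YAPi and TAZi and 61.7% of the calls under Ctrli, and 353 were called in opposite directions. Of the 2711 genes called with at least a 4-fold difference under YAPi and TAZi, 73.6% were called in the same direction under Ctrli. CDH1 gave -7.85, VIM 1.32, NF2 -3.85, ANKRD1 5.54, IL6 7.43 and SQLE -4.10 on the log2 scale there. KRT5 had no count in the MDA-MB-231 control libraries.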

How the data were processed

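The methods state that the RNA-seq libraries were built from total RNA with the TruSeq Ribo Profile kit. They do not set apart the MDA-MB-231 control libraries, which are of another library type by their counts, as given above. The authors aligned reads with STAR to GENCODE version 30 (hg38), keeping reads with up to 20 alignments, and deposited RSEM expected counts per gene, which are estimated and not normalized. TPM and FPKM values in the same files were not used. Expected counts were rounded to whole numbers, and spike-in, phiX and numeric identifiers were left out. Of 60725 Ensembl identifiers 93.8% were matched to GENCODE version 44 names. Depth ran from 1724453 to 17468587 counts.

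DESeq2 (version 1.42.0, R 4.3.3) was fitted to the 8 libraries with siRNA and line as terms, default size factors and Wald test, without shrinkage of fold changes. The threshold for a call was that of the study, a Benjamini-Hochberg adjusted p under 0.01. Where no tool is named, an adjusted p comes from DESeq2. The siRNA dependence was the interaction term of line and siRNA. Levels are normalized counts divided by the deposited effective length in kilobases. A fold against a line at 0 was computed against 3 counts over its 4 libraries, and counting intervals are exact 95% intervals for 1 to 3 counts that cover counting error only.

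Genes named were VIM, CDH1, KRT5, YAP1 and WWTR1, the 12 protein-coding genes with the largest and the 12 with the smallest log2 fold change among those called that averaged 100 or more normalized counts with no overlap between the lines, up to 4 called members of each gene list at that average, further members chosen after their values were seen, and up to 5 genes called for the interaction. Some genes these rules name are not reported here. The libraries, lists and rules were chosen with earlier results of these data known. Alternatives were edgeR (version 4.0.16), TMM size factors, a mean count of at least 10, effective length offsets, protein-coding genes only, thinning to the shallowest library, a replicate block, each siRNA alone, no siRNA term, vehicle or control libraries, a log2 threshold of 1, and libraries left out. Added after seeing the data were the fits without both MDA-MB-231 replicate 1 libraries, with a block within each line, and with protein-coding totals as size factors.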

Additional observations from a re-analysis of the deposited data

Results flagged for a closer look

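A total of 12 named genes had a line difference that differed between the YAPi and the TAZi libraries by the interaction term (DESeq2, adjusted p under 0.01). The values are the log2 difference between the lines under YAPi minus that under TAZi. CLDN4 (-5.26), HMOX1 (-3.30), ADGRF1 (-2.44) and UHMK1 (-1.53) are described above. Negative values, with a larger MDA-MB-231 to ER-Src ratio under TAZi, were also found for the laminin chains LAMA4 (-2.36) and LAMA3 (-1.33), fibronectin FN1 (-1.24), the interferon-stimulated gene IFI27 (-2.12), the desmosome gene PERP (-0.83) and the phosphatase DUSP4 (-0.72). AXL (0.47) and ETS2 (0.71) had positive values. Of the 12 genes only CLDN4, ADGRF1, UHMK1 and HMOX1 were also called by edgeR. In IFI27 the difference lay in ER-Src, at 313 and 274 under YAPi and 46.3 and 73.8 under TAZi, while MDA-MB-231 stood at 397 and 454 under YAPi and 338 and 414 under TAZi. AXL was higher under YAPi than under TAZi in both lines, at 129.9 and 129 under YAPi and 99.3 and 94.6 under TAZi in ER-Src and 1729 and 1514 under YAPi and 912 and 791 under TAZi in MDA-MB-231.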

How the results depend on the processing

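The count of genes called between the lines (8156) fell to 5220 (2465 higher, 2755 lower) when all libraries were thinned to the shallowest, to 4407 (1981 higher, 2426 lower) with the YAPi and 4824 (2192 higher, 2632 lower) with the TAZi libraries alone, which have fewer samples, and to 2387 (1155 higher, 1232 lower) against a log2 threshold of 1. Scaling to protein-coding totals, chosen after seeing the data, gave 8413 (5325 higher, 3088 lower). Leaving out 1 library gave 6712 to 7589 genes (3183 to 3596 higher, 3529 to 4005 lower). The interaction (212 genes) was less stable, with 9 genes in edgeR, 132 with effective length offsets, 39 thinned, 123 with ETH, 26 without both MDA-MB-231 replicate 2 and 25 without both replicate 1 libraries, 528 with a block within each line, and 57 to 183 with 1 library left out (57 without ER-Src TAZi_TAM replicate 1, 64 without ER-Src YAPi_TAM replicate 2, 69 without ER-Src TAZi_TAM replicate 2, 104 without MDA-MB-231 TAZi replicate 2, 110 without MDA-MB-231 TAZi replicate 1, 130 without MDA-MB-231 YAPi replicate 2). Fewer genes also had an adjusted p for the interaction in several of these fits. Their number was 10715 in the main fit, 3037 thinned, 3037 without both replicate 1 and 3664 without both replicate 2 libraries. With 1 library left out it was 3037 to 8117. The cause of these shifts was not tested.

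Replicate numbers did not pair libraries across the lines (correlations of deviations -0.127 to 0.052), though YAPi and TAZi deviated together within MDA-MB-231 (0.671) and within ER-Src (0.323). With the replicate block 7571 genes were called between the lines and 231 for the interaction.

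For the 144 named genes, 3299 of 3452 values under the alternatives kept direction and call, 120 lost the call, 2 gained it and 31 changed sign. Log2 fold changes that changed sign were YAP1 0.01, WWTR1 0.08 (edgeR); YAP1 0.01 (mean count of at least 10); YAP1 0.09 (thinned to equal depth); YAP1 0.17, WWTR1 0.31 (no siRNA covariate); YAP1 0.26, UHMK1 0.24 (TAZi only); YAP1 0.12 (without both MDA-MB-231 replicate 1 libraries); YAP1 0.23, WWTR1 0.09 (protein-coding totals as size factors); WWTR1 0.49 (YAPi only); WWTR1 1.54, THBS1 -0.03, CDT1 0.15, PLK1 0.50, CENPF -1.30, HK2 0.17, MT-CO2 2.56, MT-ND4 4.92, MT-ND5 3.26, MT-CYB 2.84, RN7SK -16.36 (Ctrli only); WWC1 0.60, SOCS3 1.26, LYN 0.50 (ETH in place of TAM), and with 1 library left out the ranges were YAP1 -0.15 to 0.12, WWTR1 -0.47 to 0.18. YAP1, WWTR1 and UHMK1 were not called in the main comparison. The low depth of MDA-MB-231 limits what can be seen of genes rare in that line.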

Other observations

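By chromosome, the median log2 fold change of protein-coding genes that averaged 100 or more normalized counts, of MDA-MB-231 over ER-Src, ran from -0.48 (chromosome 22, 168 genes) and -0.45 (chromosome 18, 125 genes) to 0.38 (chromosome X, 234 genes) and 0.46 (chromosome 20, 221 genes). In windows of 10 Mb with at least 20 such genes, the highest median was 1.01, at 10 to 20 Mb of chromosome 6 (21 genes), followed by 0.81 at 40 to 50 Mb of the same chromosome (50 genes). The lowest was -0.87, at 230 to 240 Mb of chromosome 1 (29 genes). These are descriptions with no test, and DNA copy number was not measured here.

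Outside the lists, SOD2, mitochondrial superoxide dismutase, was chosen after its values were seen. It stood at 11738 and 9211 under YAPi and 15353 and 14849 under TAZi in ER-Src TAM. In ER-Src ETH it stood at 1736 and 1294 under YAPi and 2482 and 2874 under TAZi. In MDA-MB-231 it stood at 414 and 587 under YAPi and 452 and 414 under TAZi (log2 fold change relative to TAM -4.52, SE 0.12).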
